A study of Rattus norvegicus with 6 samples.

Results

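RAB GTPases are small switch proteins that mark the membranes of a cell. Each cycles between a GTP-bound form, which recruits tethers, motors and fusion factors to one compartment, and a GDP-bound form, which is lifted off the membrane. In beta cells they route the insulin precursor from the endoplasmic reticulum (ER) through the Golgi, recycle granule membrane and deliver it to lysosomes. The genes described here are the 46 rows of the deposited expression table, of 19289 in all, whose symbol is Rab, a number and at most 1 letter and 1 further digit. Rab3a, Rab3b, Rab3c, Rab3d, Rab26, Rab27a and Rab27b, which serve granule exocytosis, are left out by that rule. The rule uses names and no measured value, though it was set with earlier results of these data known. Members were sorted into 5 classes by the membrane that each protein is known to serve.

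Messenger RNA was measured in 6 bulk libraries. The cells were INS-1E, an insulin-secreting line grown from a rat beta-cell tumour. The groups are 3 libraries of cells kept with uric acid, the end product of purine breakdown in humans, for 24 hours, and 3 libraries of untreated cells. The labels give no uric acid dose, name no vehicle for the untreated cells and leave unsaid whether replicates came from separate cultures. The p-values below therefore speak only of library-to-library spread, which may be technical. All libraries come from 1 established tumour line, and no islet tissue was measured.

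Summed estimated counts ranged from 41191819 to 48875962 in the uric acid libraries and from 47858248 to 59092982 in the untreated libraries. All 14 beta-cell markers examined were tested, and their summed level was 80782 to 92538 FPKM in uric acid libraries and 81507 to 95126 FPKM in untreated libraries. FPKM are fragments scaled for transcript length and for the number of mapped fragments in the library. Of those markers 1, Mafa, a factor of mature beta cells, was called lower. The listed markers of fibroblasts, endothelium and immune cells summed to 1.04 to 1.87 FPKM in uric acid libraries and 1.53 to 2.54 FPKM in untreated libraries. Those of other islet endocrine cells summed to 8.06 to 11 FPKM in uric acid libraries and 6 to 10.5 FPKM in untreated libraries, nearly all of it Gcg. Of 4 listed acinar and duct markers, Krt7 stood at 170.4 to 183 FPKM in uric acid libraries and 188 to 192 FPKM in untreated libraries, and the other 3 together at or under 1.08 FPKM in each library. Prss1, Krt19 and Ppy were listed at 0 in 5 of 6 libraries. Whether the Krt7 or Mafa values bear on the results was not tested.

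Few RAB genes passed the threshold in uric acid. Of the 46 genes, 42 had a mean of at least 1 FPKM over the 6 libraries and were tested, and 3 of them rose: Rab13, Rab37 and Rab40b. None fell. Across all 12460 tested features, 7.98% passed the same threshold, an adjusted p under 0.05 (edgeR quasi-likelihood test, Benjamini-Hochberg over all features, two-sided), 4.99% as higher and 2.99% as lower. The 3 calls are 7.14% of the tested members, a share near that background. At an unadjusted p under 0.05 there were 8 higher and 4 lower members, 28.6% of them against 25.7% of all features. DESeq2 called 3 higher and 2 lower, and limma on log2(FPKM + 1) called the 3 and none lower. Each tool has its own background. Over the same 12460 features DESeq2 called 968 higher and 785 lower, more than edgeR. There limma called 533 higher and 288 lower, against 622 and 372 with edgeR. The DESeq2 and limma counts given below for classes are to be read beside these.

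The median log2 fold change of the 42 was 0.03, beside 0 over all tested features, and the lowest and highest were -0.40 and 0.75. For 29 members, or 69.0%, the 95% confidence interval of the log2 fold change lay inside ±0.5, against 59.3% of all tested features. Groups did not overlap in FPKM for 18 members (42.9%, beside 31.0% of all features), with uric acid above in 12 and below in 6. In these bulk libraries fewer cells that use a gene and less of its RNA per cell cannot be told apart.

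**Figure D1:**
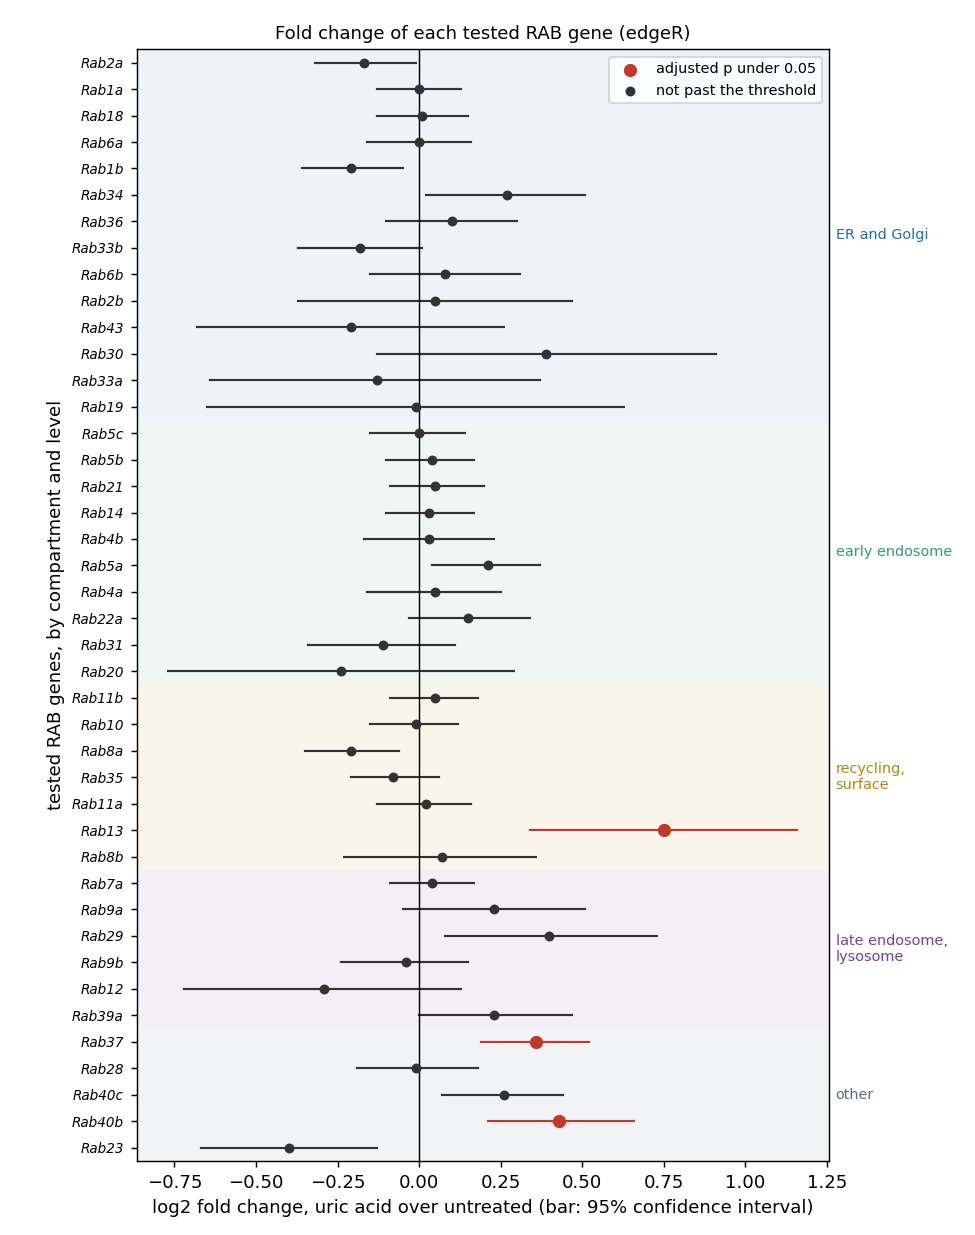
Log2 fold change of each of the 42 tested RAB genes, uric acid over untreated (x axis), with its 95% confidence interval from the edgeR fit, by compartment class and, within a class, by level (y axis). Rab13, Rab37 and Rab40b, in red, passed the threshold at 0.75, 0.36 and 0.43, and the other 39 did not.

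The family's summed level was 1494, 1487 and 1458 FPKM in uric acid libraries 1, 2 and 3, against 1448, 1485 and 1458 FPKM in untreated libraries 1, 2 and 3. These totals overlap, at 1480 ± 18.8 and 1464 ± 19.1 FPKM (SD, n = 3 each). Levels within the family spanned a wide range. Rab2a, Rab1a and Rab7a averaged at least 100 FPKM over the 6 libraries, 22 members lay from 10 to under 100, 17 from 1 to under 10, and 4 under 1. The median of the tested members was 18.2 FPKM, against 10.4 FPKM over all tested features. Rab2a, Rab1a, Rab7a and Rab5c, the 4 most abundant, held 37.9% of the family's summed FPKM. In the order of levels, 34 of 45 neighbouring pairs had overlapping ranges over the 6 libraries. Near the top, ranges did not overlap between Rab7a (lowest library 140.2 FPKM) and Rab5c (highest 102 FPKM). The same held, by less, between Rab5c (lowest 94.8 FPKM) and Rab11b (highest 91.4 FPKM), and between Rab11b and Rab10. Other such steps lay further down, as between Rab36 (lowest 15.5 FPKM) and Rab23 (highest 10.5 FPKM).

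**Figure D2:**
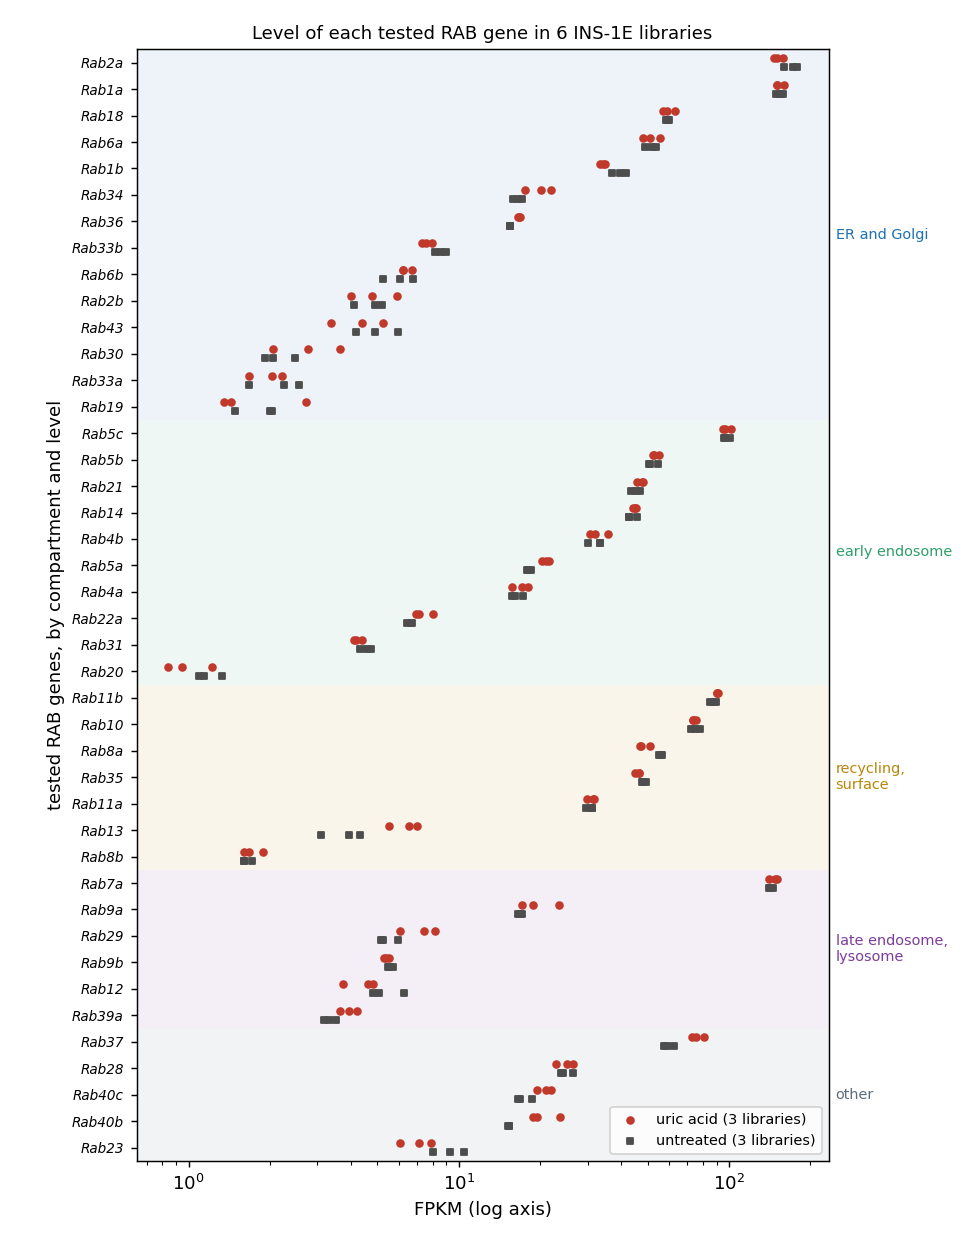
FPKM of the 42 tested RAB genes on a log axis (x axis), with 3 uric acid libraries as red circles and 3 untreated libraries as dark squares in each row (y axis, by compartment class and level). Rab2a, Rab1a and Rab7a lie above 100 FPKM in all 6 libraries. The groups of 18 genes, Rab13, Rab37 and Rab40b among them, do not overlap (42.9%, beside 31.0% of all features).

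The ER and Golgi class, the first leg of the secretory route, had no call in either direction. Of its 14 members, all tested, 1 was higher and 2 were lower at an unadjusted p under 0.05, 21.4% beside 25.7% of all features. DESeq2 and limma called none, and the median log2 fold change was 0. Rab2a and Rab1a, which act in traffic between the ER and the Golgi, had the highest means of the family over the 6 libraries, though their ranges overlap each other and that of Rab7a. Rab2a stood at 158, 151 and 147 FPKM in uric acid libraries 1, 2 and 3, against 160.0, 179 and 172 FPKM in untreated libraries 1, 2 and 3. All uric acid values lay below all untreated values, and the log2 fold change of -0.17 ± 0.07 (SE) missed the threshold (edgeR adjusted p = 0.167). Rab1a stood at 160.0, 151 and 151 FPKM in uric acid libraries and 154, 158 and 149 FPKM in untreated libraries. Those ranges overlap, and the 95% interval of its log2 fold change was -0.13 to 0.13. Its paralog Rab1b stood at 34.7, 33.4 and 34.3 FPKM in uric acid libraries and at 37, 39.4 and 41.5 FPKM in untreated libraries. Rab1b had the smallest p of the class, with non-overlapping groups and a log2 fold change of -0.21 ± 0.07 (edgeR adjusted p = 0.11).

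Rab18, which sits on the ER and on lipid droplets, stood at 63.1, 58.8 and 57.1 FPKM in uric acid libraries, against 59.7, 59.8 and 58.4 FPKM in untreated libraries, with overlapping groups and an interval of -0.13 to 0.15. Rab6a, which returns membrane from the Golgi towards the ER, averaged 51.5 FPKM in either group (SD 3.76 in uric acid and 2.32 in untreated libraries, n = 3 each). Rab34, a Golgi RAB also used in cilium formation, averaged 19.9 ± 2.25 FPKM in uric acid libraries and 16.5 ± 0.645 FPKM in untreated libraries (SD, n = 3 each), with a log2 fold change of 0.27 and an edgeR adjusted p of 0.162. Rab33b, a Golgi RAB that binds the autophagy protein ATG16L1, averaged 7.6 and 8.59 FPKM (-0.18, edgeR adjusted p = 0.226) in uric acid and untreated libraries. Its groups, and those of Rab34 and Rab36, did not overlap. Rab36 averaged 16.6 and 15.5 FPKM in uric acid and untreated libraries, a log2 fold change of 0.10. The other 6 members (Rab6b, Rab2b, Rab43, Rab30, Rab33a and Rab19) averaged 1.84 to 6.2 FPKM over the 6 libraries, and their groups overlapped. The interval of Rab30 reached highest among these, from -0.13 to 0.91, so its change is poorly bounded. Rab2b overlaps Tox4 on the other strand, and whether reads were counted by strand is not stated in the labels or files, so reads of such pairs may be mixed.

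In the early endosome class no gene was called. None of its 10 tested members passed with edgeR, DESeq2 or limma, and the median log2 fold change was 0.04. At an unadjusted p under 0.05, 1 of the 10 was higher and none lower, a smaller share than the 25.7% of all features. The class includes RAB5, which drives fusion of incoming vesicles with early endosomes, and RAB4, which returns receptors quickly to the surface. Rab5c stood at 96.5, 102 and 94.8 FPKM in uric acid libraries and 95.5, 96.8 and 101 FPKM in untreated libraries. Rab5b stood at 52.9, 52.3 and 55.1 FPKM in uric acid libraries and 50.7, 54.4 and 51.1 FPKM in untreated libraries. Both overlapped between groups, with intervals of -0.15 to 0.14 and -0.10 to 0.17. Rab5a, the least abundant of the 3, stood at 21.1, 21.5 and 20.3 FPKM in uric acid libraries, against 18.5, 18.1 and 17.9 FPKM in untreated libraries. All its uric acid values lay above all its untreated values, and the log2 fold change of 0.21 ± 0.07 missed the threshold (edgeR adjusted p = 0.123). Rab5a overlaps Pp2d1 on the other strand, which was called higher (log2 fold change 0.57, edgeR adjusted p = 0.0311), and its part in the Rab5a value was not tested.

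Rab21, which sorts integrins in endosomes, stood at 45.5, 47.9 and 47.6 FPKM in uric acid libraries and 46.9, 45.4 and 43.4 FPKM in untreated libraries, with overlap. Rab14, which links the trans-Golgi to endosomes, averaged 44.8 ± 0.533 FPKM in uric acid libraries and 43.7 ± 1.65 FPKM in untreated libraries (SD, n = 3 each). Rab4b averaged 32.8 and 32.1 FPKM and Rab4a 17 and 16.5 FPKM in uric acid and untreated libraries, and the groups of each overlapped. Among the rest, Rab22a averaged 7.35 and 6.61 FPKM, Rab31 4.2 and 4.55 FPKM, and Rab20 1 and 1.18 FPKM in uric acid and untreated libraries. Of these 3, Rab22a had groups that did not overlap, with a log2 fold change of 0.15 (edgeR adjusted p = 0.271).

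In the class of recycling and surface delivery, Rab13 rose and the more abundant members did not pass. With 7 genes tested, this 1 call is 14.3% beside 7.98% of all features. The unadjusted p was under 0.05 for 1 higher and 1 lower gene, 28.6% beside 25.7% of all features. With DESeq2 1 was called higher and 1 lower, and with limma 1 and 0. RAB13 directs vesicles to the plasma membrane and to tight junctions in epithelia. It stood at 5.51, 6.98 and 6.56 FPKM in uric acid libraries 1, 2 and 3, against 3.08, 4.3 and 3.93 FPKM in untreated libraries 1, 2 and 3. Every uric acid library lay above every untreated library. The rise was 1.68-fold (log2 fold change 0.75 ± 0.18, 95% interval 0.34 to 1.16, edgeR adjusted p = 0.0385), the largest in the family. It rests on estimated counts of 347, 374 and 387 in uric acid libraries and 238, 293 and 247 in untreated libraries, of which 1 read pair may add up to 4. The call was lost when any 1 library was left out: leaving out uric acid library 1, 2 or 3 gave an adjusted p of 0.076, 0.0813 or 0.0652, and leaving out untreated library 1, 2 or 3 gave 0.12, 0.0928 or 0.0826. Rab13 (ENSRNOG00000016733) lies on chromosome 2 from 189581644 to 189586338 in the deposited table, which names no genome build.

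Rab11b and Rab10 led this class in level. Rab11b, of the recycling endosome, stood at 90, 91.4 and 90.2 FPKM in uric acid libraries and 85.4, 87.4 and 89.7 FPKM in untreated libraries, which do not overlap by a narrow margin (log2 fold change 0.05, interval -0.09 to 0.18). Rab10, which carries glucose transporter vesicles to the surface in fat cells, stood at 73.8, 75.8 and 73.8 FPKM in uric acid libraries and 74.8, 78 and 72.6 FPKM in untreated libraries, with overlap. Rab8a, which serves delivery to the surface and the cilium, stood at 46.9, 50.9 and 47.2 FPKM in uric acid libraries, against 56.3, 56 and 55 FPKM in untreated libraries. All its uric acid values lay below all its untreated values, and it came nearest to a lower call in this class. Its log2 fold change was -0.21 ± 0.06 (edgeR adjusted p = 0.0833), and DESeq2 called it lower (adjusted p = 0.0372). Rab35, of recycling from early endosomes, averaged 45.9 ± 0.87 and 48.4 ± 0.715 FPKM (SD, n = 3 each) in uric acid and untreated libraries, a log2 fold change of -0.08 with an interval of -0.21 to 0.06. Rab11a averaged 30.9 and 30.6 FPKM and Rab8b 1.73 and 1.65 FPKM, and both overlapped. Rab15 and Rab25 were under the filter, at 0.37 to 0.716 and 0 to 0.34 FPKM over the 6 libraries.

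In the class of late endosomes, lysosomes and autophagy none of 6 tested members passed with edgeR, DESeq2 or limma. At an unadjusted p under 0.05, 2 were higher and none lower, 33.3% beside 25.7% of all features. The median log2 fold change was 0.14. Rab7a, the switch for fusion of late endosomes and autophagosomes with lysosomes, stood at 151, 141 and 148 FPKM in uric acid libraries and 140.2, 145 and 142 FPKM in untreated libraries. The groups overlap, and the interval of its log2 fold change was -0.09 to 0.17. Rab9a, which returns cargo from late endosomes to the trans-Golgi, stood at 18.8, 23.4 and 17.1 FPKM in uric acid libraries, against 16.8, 16.6 and 17.1 FPKM in untreated libraries. Uric acid library 2 was the high one and library 3 lay barely above the untreated range (log2 fold change 0.23, edgeR adjusted p = 0.277). Rab29, which recruits the kinase LRRK2 to Golgi and lysosome membranes, stood at 7.44, 8.14 and 6.07 FPKM in uric acid libraries and 5.14, 5.24 and 5.98 FPKM in untreated libraries. It had the smallest p of the class and groups that did not overlap, with a log2 fold change of 0.40 ± 0.14 (edgeR adjusted p = 0.121). Rab39a averaged 3.92 and 3.33 FPKM (0.23, edgeR adjusted p = 0.194), Rab9b 5.4 and 5.56 FPKM and Rab12 4.39 and 5.38 FPKM in uric acid and untreated libraries. Rab12, with a log2 fold change of -0.29, and Rab9b had overlapping groups. Rab32, of lysosome-related organelles, was under the filter at 0 to 0.138 FPKM.

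The remaining class holds RABs of granules, of cilia and of ubiquitin ligases, and it holds the other 2 calls. These are 2 of only 5 genes tested, beside 7.98% of all features, and none was called lower. At an unadjusted p under 0.05, 3 of the 5 were higher and 1 lower, beside 25.7% of all features. DESeq2 called 2 higher and 1 lower, and limma 2 and 0. The difference from all features was not tested. Rab37, found on secretory granules, stood at 73, 75.4 and 81.1 FPKM in uric acid libraries 1, 2 and 3, against 57.5, 59.1 and 62.4 FPKM in untreated libraries 1, 2 and 3. No uric acid value came near the untreated range. The rise was 1.28-fold (log2 fold change 0.36 ± 0.07, interval 0.19 to 0.52, edgeR adjusted p = 0.0211), on estimated counts of 4544 to 5570 in each library. With 1 library left out, the call was lost without uric acid library 1 (adjusted p = 0.0584), untreated library 1 (0.0797) or untreated library 2 (0.107).

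Rab40b encodes a RAB with a SOCS box, through which it joins a cullin-5 ubiquitin ligase. It stood at 18.9, 19.4 and 23.6 FPKM in uric acid libraries, against 15.3, 15.2 and 15.3 FPKM in untreated libraries, with uric acid library 3 the highest. The rise was 1.35-fold (log2 fold change 0.43 ± 0.10, interval 0.21 to 0.66, edgeR adjusted p = 0.0334). The call was lost without uric acid library 1 (adjusted p = 0.0623) and without untreated libraries 1 (0.106), 2 (0.142) and 3 (0.0827). Its paralog Rab40c stood at 21.9, 19.5 and 21 FPKM in uric acid libraries and 16.9, 16.6 and 18.6 FPKM in untreated libraries. These groups did not overlap either, but the log2 fold change of 0.26 ± 0.08 missed the threshold (edgeR adjusted p = 0.0906). Rab40c overlaps Mettl26 on the other strand, whose log2 fold change was 0.13 (edgeR adjusted p = 0.449). Rab37 (ENSRNOG00000059793) lies on chromosome 10 from 103703404 to 103710527 and Rab40b (ENSRNOG00000036661) on chromosome 10 from 110557729 to 110585376.

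Rab23, a cilium RAB that restrains Hedgehog signalling, had the most negative value of the family. It stood at 7.89, 6.07 and 7.1 FPKM in uric acid libraries, against 9.3, 10.5 and 8.05 FPKM in untreated libraries. The groups did not overlap, and the log2 fold change of -0.40 ± 0.12 missed the threshold with edgeR (adjusted p = 0.0727) and passed with DESeq2 (adjusted p = 0.0208). Rab28, another cilium RAB, averaged 24.8 ± 1.81 and 24.9 ± 1.43 FPKM (SD, n = 3 each) in uric acid and untreated libraries. Rab42 was listed at 0 in 5 libraries and at 0.053 FPKM in uric acid library 3.

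**Figure D3:**
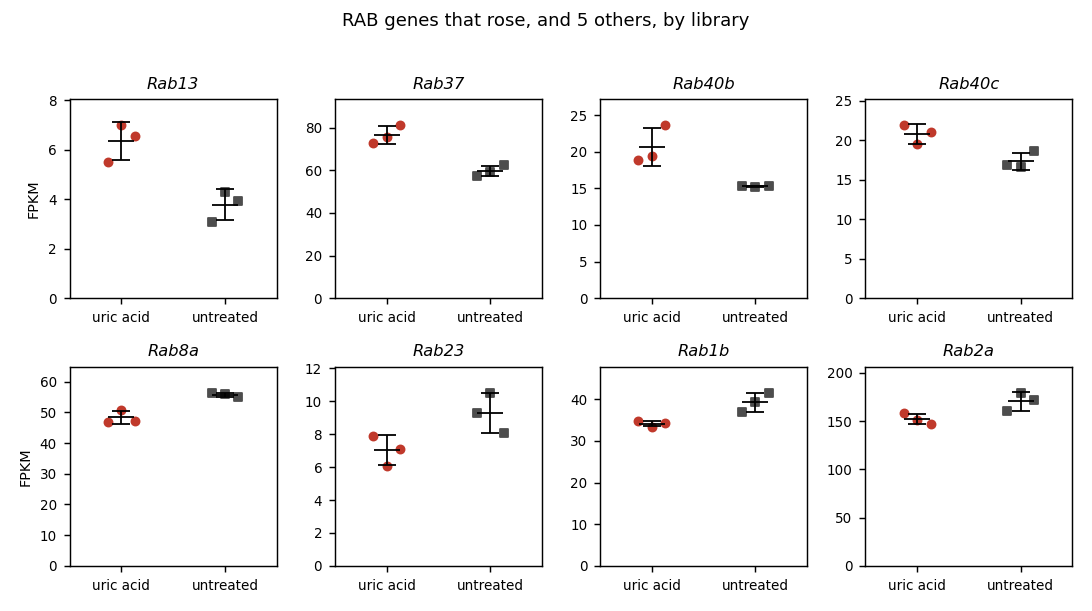
FPKM of 8 RAB genes by library (y axis from 0), with 3 uric acid libraries as red circles left and 3 untreated libraries as dark squares right, and the mean with its SD as black bars. Rab13, Rab37 and Rab40b rose, while Rab40c, Rab8a, Rab23, Rab1b and Rab2a have groups that do not overlap but missed the edgeR threshold.

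The sequence before the annotated start is shown for Rab13 and Rab40b, so that it can be read beside their values. Rab37, the other gene that rose, was not matched to a RefSeq window and none is printed for it. RefSeq entries on GRCr8 were found for 34 of the 42 tested members, Rab13 and Rab40b among them. The 250 bases before the start are printed 5′ to 3′ on the gene's strand, for Rab13 chr2:177972720-177972969 on the plus strand and for Rab40b chr10:107157376-107157625 on the minus strand. Capitals mark CCAAT boxes, the site of the factor NF-Y, on either strand.
Rab13: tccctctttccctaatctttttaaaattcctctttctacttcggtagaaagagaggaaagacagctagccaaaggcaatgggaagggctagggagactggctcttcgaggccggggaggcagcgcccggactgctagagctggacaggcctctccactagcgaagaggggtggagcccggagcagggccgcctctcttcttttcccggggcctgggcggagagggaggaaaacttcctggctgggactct
Rab40b: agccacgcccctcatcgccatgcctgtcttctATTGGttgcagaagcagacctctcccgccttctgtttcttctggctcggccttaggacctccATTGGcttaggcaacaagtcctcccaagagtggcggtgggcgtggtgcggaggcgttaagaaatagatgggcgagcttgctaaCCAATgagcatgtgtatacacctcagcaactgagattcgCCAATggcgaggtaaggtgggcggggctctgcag
The Rab40b window holds 4 CCAAT boxes, of which 2 read ATTGG on this strand, and the Rab13 window holds none. CCAAT on either strand occurs in 34.3% of 27457 such windows and in 13 of the 34 member windows, those of Rab40c, Rab8a, Rab7a, Rab5b and Rab5c among them. Also searched on both strands were the E-boxes CATATG, bound by MIST1, and CACGTG, bound by TFEB and MYC, the cAMP response element TGACGTCA and the C/EBP-ATF core TGATGNAA. Neither printed window holds any of these 4, so no match overlaps a CCAAT box there. CACGTG lies in the windows of Rab21, Rab31 and Rab5a, 3 of 34, against 5.79% of all windows, and the other 3 motifs lie in none of the 34. They lie in 3.5% (CATATG), 1.7% (TGACGTCA) and 3.27% (TGATGNAA) of all windows. A match is a description of letters and was not tested as a binding site.

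Set beside each other, the classes kept their order of share in all 6 libraries. The ranges of share overlapped between groups for the early endosome class and for no other class. The ER and Golgi class held 34.2 to 35.8% of the summed RAB FPKM in uric acid libraries and 36.4 to 37.1% in untreated libraries. Early endosome genes held 21.8 to 22.2% in uric acid libraries and 21.5 to 21.9% in untreated libraries. Recycling and surface genes held 19.7 to 20.4% and 20.7 to 20.8%, and late endosome and lysosome genes 12.6 to 12.8% and 12.1 to 12.3%, in uric acid and untreated libraries. The remaining class held 9.82 to 10.7% in uric acid libraries and 8.52 to 8.79% in untreated libraries, at 149.8 ± 5.22 and 126 ± 2.78 FPKM (SD, n = 3 each), with Rab37 its most abundant gene. Single abundant genes weigh in these sums. Rab37 averaged 76.5 and 59.7 FPKM, and Rab2a, of the ER and Golgi class, 152 and 170.1 FPKM, in uric acid and untreated libraries. Shares sum to the whole, so a larger share of 1 class lowers the others, and differences between classes were not tested.

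**Figure D4:**
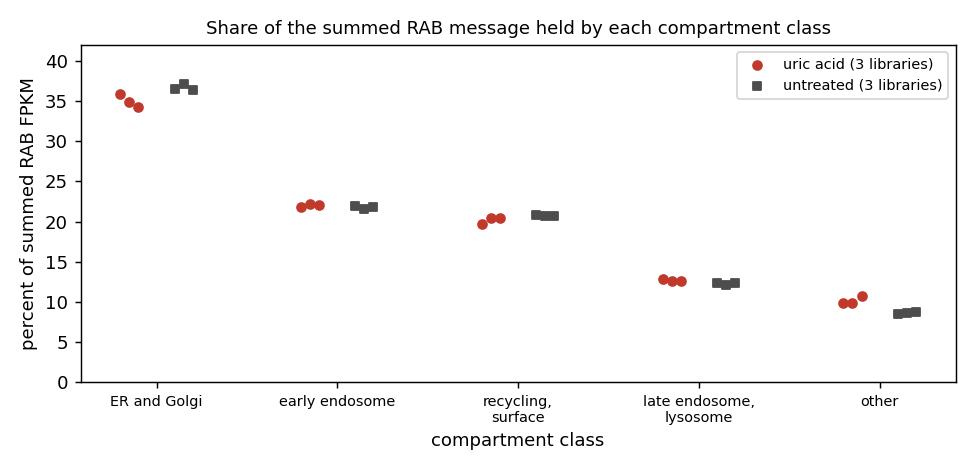
Percent of the summed FPKM of the 46 RAB genes (y axis) held by each compartment class (x axis), with 3 uric acid libraries as red circles left and 3 untreated libraries as dark squares right. The classes keep their order in all 6 libraries, and the class with Rab37 and Rab40b sits at 9.82 to 10.7% in uric acid libraries against 8.52 to 8.79% in untreated libraries.

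Within subfamilies 1 paralog usually carried most of the message. Rab2a made up 96.4 to 97.4% of the Rab2 message in uric acid libraries and 96.8 to 97.8% in untreated libraries. Rab8a made up 96.4 to 96.7% of the Rab8 message in uric acid libraries and 97 to 97.2% in untreated libraries, and Rab6a 87.7 to 89.9% and 88.8 to 90.3% of the Rab6 message. Rab1a held 81.5 to 82.2% of the Rab1 message in uric acid libraries and 78.2 to 80.7% in untreated libraries, without overlap. Rab9a held 76.4 to 80.9% of the Rab9 message in uric acid libraries and 74.7 to 75.5% in untreated libraries. The ranges of Rab9a, of Rab8a above and of Rab5a below did not overlap between groups either. Rab40 was close to even, with Rab40b at 46.3 to 52.9% in uric acid libraries and 45.2 to 47.8% in untreated libraries. In the Rab5 subfamily Rab5c held 55.7 to 58.1% in uric acid libraries and 57.2 to 59.5% in untreated libraries. There Rab5b held 29.7 to 32.4% and 30 to 32.1%, and Rab5a 11.9 to 12.4% and 10.5 to 11.2%, in uric acid and untreated libraries. Rab4b at 64 to 66.9% and 63.4 to 67.8%, Rab11b at 74 to 75.4% and 73.3 to 75.2%, and Rab33b at 77.4 to 82.5% and 76 to 84.4% of their subfamilies overlapped between uric acid and untreated libraries. The labels and files do not state how reads shared by close paralogs were assigned, so these shares are uncertain to that extent.

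The messages of proteins that switch RABs on and off, or act for them, were called about as often as those of all features. A list of 121 such genes was set up, of which 119 were matched to the table and 110 tested. It covers prenylation and extraction, exchange factors (GEFs, which load GTP), GTPase-activating proteins (GAPs, which end the active state) and effectors. Of the 110, 9 rose and 1 fell, 9.09% beside 7.98% of all tested features, with a median log2 fold change of 0.01. At an unadjusted p under 0.05 there were 20 higher and 8 lower, 25.5% beside 25.7% of all features.

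Among GAPs 4 of 31 tested rose and none fell, 12.9% beside 4.99% of all features called higher and 7.98% called in either direction. At an unadjusted p under 0.05, 7 were higher and 3 lower, 32.3% beside 25.7% of all features. DESeq2 called 4 higher and 2 lower, and limma 4 and 0. Usp6nl, also called RN-tre, is a GAP for RAB5. It stood at 21.5, 21.4 and 21.2 FPKM in uric acid libraries 1, 2 and 3, against 12.9, 12.9 and 12.6 FPKM in untreated libraries 1, 2 and 3. The libraries of each group lay within a narrow band far from the other group. The rise was 1.67-fold (log2 fold change 0.74 ± 0.06, interval 0.61 to 0.87, edgeR adjusted p = 0.000251) and was called in all 17 alternative analyses. The RAB5 genes stood at log2 fold changes of 0.21 (Rab5a), 0.04 (Rab5b) and 0 (Rab5c), none past the threshold.

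Tbc1d15, a GAP for RAB7 at late endosomes and mitochondria, stood at 31.8, 32.9 and 28.8 FPKM in uric acid libraries, against 22.4, 23.7 and 20.9 FPKM in untreated libraries. The rise was 1.39-fold (log2 fold change 0.48 ± 0.08, edgeR adjusted p = 0.0081) and was also called in all 17 alternatives, with the highest adjusted p, 0.0484, without uric acid library 1. Tbc1d25, also called OATL1, a GAP for RAB33B on autophagosomes, stood at 7.37, 6.65 and 7.45 FPKM in uric acid libraries and 4.77, 4.77 and 5.32 FPKM in untreated libraries. Its groups are well apart, at a log2 fold change of 0.53 ± 0.11 (edgeR adjusted p = 0.022). The call was lost without uric acid library 1 (0.0879) and untreated libraries 1 (0.0797) and 2 (0.11). Sgsm1, a RUN and TBC domain protein, stood at 19.4, 18.8 and 21.5 FPKM in uric acid libraries and 15.9, 14.7 and 13.8 FPKM in untreated libraries, with a log2 fold change of 0.43 ± 0.08 (edgeR adjusted p = 0.0144). It was lost without uric acid library 1 (0.0538) and untreated libraries 2 (0.0821) and 3 (0.0543).

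Of 43 tested GEF genes, 1 rose and none fell, 2.33% beside the 4.99% of all features called higher. At an unadjusted p under 0.05, 6 were higher and 2 lower, 18.6% beside 25.7% of all features. DESeq2 called 4 higher and 1 lower, and limma none. Hps4, a subunit of the BLOC-3 complex that activates RAB32 and RAB38, stood at 17.6, 17.2 and 16.5 FPKM in uric acid libraries, against 14.7, 13.4 and 12.4 FPKM in untreated libraries (log2 fold change 0.34 ± 0.08, edgeR adjusted p = 0.0359). With 1 library left out it held without uric acid library 3 (0.0357). It was lost without uric acid libraries 1 (0.121) and 2 (0.0591) and without untreated libraries 1 (0.0512), 2 (0.16) and 3 (0.106).

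Among 30 tested effectors 4 rose and 1 fell, 16.7% beside 7.98% of all features. At an unadjusted p under 0.05, 7 were higher and 3 lower, 33.3% beside 25.7% of all features. DESeq2 called the 4 and the 1, and limma called 3 higher and none lower, without Inpp5b and Rab11fip1. Differences in share between these classes and all features were not tested. Golga5, the golgin-84 tether that binds RAB1, stood at 29.1, 29.5 and 28 FPKM in uric acid libraries, against 21.2, 22.2 and 23.1 FPKM in untreated libraries (log2 fold change 0.38 ± 0.07, edgeR adjusted p = 0.0138). Rilpl2, which binds phosphorylated RAB8 and RAB10, stood at 30.5, 33.9 and 32.1 FPKM in uric acid libraries and 21.3, 23.8 and 26.1 FPKM in untreated libraries (0.44 ± 0.10, edgeR adjusted p = 0.03). Both genes had groups well apart. Rufy3, an adaptor of lysosome transport, averaged 22.4 ± 1.08 and 16.8 ± 1.38 FPKM (SD, n = 3 each) in uric acid and untreated libraries, and rose by 0.42 on the log2 scale (edgeR adjusted p = 0.018). Rab11fip1, an effector of RAB11 on recycling endosomes, was the 1 gene that fell, at 3.47, 3.38 and 3.78 FPKM in uric acid libraries, against 5.22, 4.46 and 4.29 FPKM in untreated libraries (log2 fold change -0.39 ± 0.09, edgeR adjusted p = 0.0372). Inpp5b, an inositol phosphatase that binds RABs, named after its values were seen, averaged 11.8 ± 1.32 and 9.05 ± 0.313 FPKM (SD, n = 3 each) in uric acid and untreated libraries (0.38, edgeR adjusted p = 0.0405). Without untreated library 2 the adjusted p of these 5 effector calls was 0.0813 (Golga5), 0.13 (Rilpl2), 0.0955 (Rufy3), 0.11 (Rab11fip1) and 0.176 (Inpp5b). Each was also lost without at least 1 other library: Golga5 without uric acid library 1 (0.0664) and untreated library 1 (0.0561), and Rilpl2 without uric acid libraries 1 (0.0794) and 2 (0.0551) and untreated library 1 (0.0897). Rufy3 was lost without untreated library 3 (0.0552). Rab11fip1 held without uric acid library 3 (0.0332) and Inpp5b without uric acid library 2 (0.00963), and neither held without any other library.

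**Figure D5:**
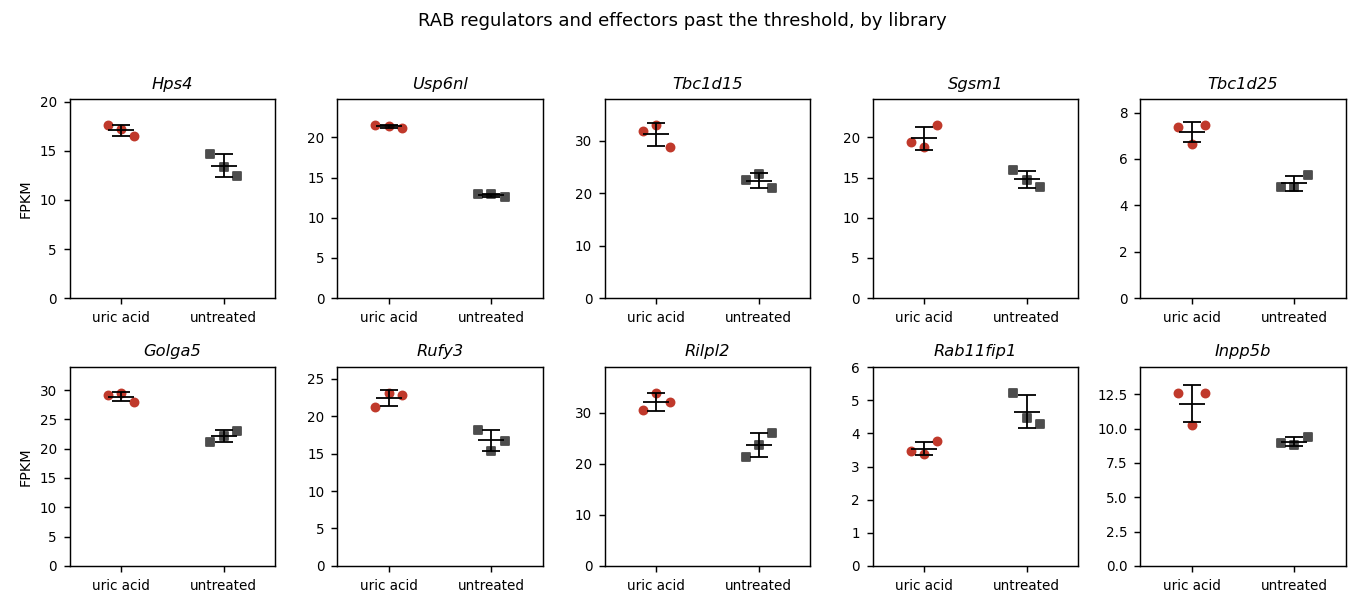
FPKM of the 10 RAB regulators and effectors past the threshold by library (y axis from 0), with 3 uric acid libraries as red circles left and 3 untreated libraries as dark squares right, and the mean with its SD as black bars. Rab11fip1 is lower in uric acid, the other 9 are higher, and Usp6nl has the least spread within groups.

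The general machinery did not move past the threshold. None of 6 tested genes sorted here under prenylation and extraction, Rabif included, was called by edgeR, DESeq2 or limma. None of the 6 reached an unadjusted p under 0.05. Gdi2, which extracts GDP-bound RABs from membranes, stood at 114, 113 and 110.5 FPKM in uric acid libraries, against 113, 115 and 118 FPKM in untreated libraries. The groups overlap, and the 95% interval of its log2 fold change was -0.17 to 0.09. Chm, the escort protein for prenylation, averaged 6.94 and 6.71 FPKM in uric acid and untreated libraries. The catalytic subunits of the prenyl transferase, Rabggta and Rabggtb, averaged 7.47 and 36 FPKM in uric acid libraries and 7.41 and 34 FPKM in untreated libraries. Chml was not analysed here.

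The 7 granule RABs outside the rule also gave no call with edgeR, DESeq2 or limma. At an unadjusted p under 0.05, 1 was higher and none lower, 14.3% beside 25.7% of all features. Rab3a, the most abundant of them, stood at 110.3, 108 and 106 FPKM in uric acid libraries, against 98.7, 104 and 97.2 FPKM in untreated libraries (log2 fold change 0.11, edgeR adjusted p = 0.266). Rab3b, the 1 counted as higher, stood at 74.5, 83.8 and 96 FPKM in uric acid libraries, against 72.2, 68 and 69.2 FPKM in untreated libraries (0.28 ± 0.09, edgeR adjusted p = 0.106). The groups did not overlap for 5 of the 7 (71.4%, beside 31.0% of all features), with uric acid above in 3 and below in 2. Rab27b, near the filter, was among them (log2 fold change -0.46, edgeR adjusted p = 0.361).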

How the data were processed

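Oligo(dT)-selected RNA of 6 INS-1E libraries was sequenced as paired reads of 150 bases after a protocol that marks strand, per the labels' protocols. Tools listed in the submitters' processing notes, with no role or genome build, are StringTie 1.3.4d, HISAT2 2.0.4, edgeR, cutadapt 1.9 and DESeq2. Per the file headers, the authors' table has an FPKM and a count column for each library. The deposited FPKM values were used as given. The deposited counts are whole-number estimated counts. In 5043 short-feature values, with a scale fitted for each library, FPKM gave whole aligned bases within 0.05 in 68.1%, and those bases over 75, rounded up, equalled the count in 98.8%, so a full read pair may add up to 4. All sample columns were matched to libraries by title.

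Of 19289 features, the 12460 whose FPKM averaged 1 or more across all libraries were tested with edgeR 4.0.16 in R 4.3.3 (quasi-likelihood F test, TMM scaling, no covariate). Standard errors are the log2 fold change over the root of F, and intervals use the t distribution of the fit. Library totals are given in the results, and log2 fold changes had a standard error of 0.113 in the median. An exact permutation test of 3 against 3 cannot go below p = 0.1, so none was used. Alternatives were DESeq2 1.42.0, limma 3.58.1 on log2(FPKM + 1) and log2(FPKM + 0.1), filters, scalings, counts divided by 4, the replicate number as a block and each library left out. The members, compartment classes and regulator list were chosen with earlier results of these data known. Named genes are all called members, in each class the 3 most abundant and the 1 with the smallest p, the prenylation and extraction genes, and up to 4 called regulators a class; 1 item under this rule is not reported here. The other members are named to account for each. Rab8a and Rab23 are given with DESeq2 after their values were seen. Promoter windows come from RefSeq on GRCr8.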

Additional observations from a re-analysis of the deposited data

How the results depend on the processing

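The 3 increases and the absence of decreases among the RAB genes came from an edgeR fit with few libraries, and the number called moved with the analysis. In the 6 fits that left out 1 library, 0 to 2 RAB genes were higher and 0 lower, regulators higher numbered 2 to 9 and lower 0 to 2, and the RAB median log2 fold change ran from 0.02 to 0.05. Calls over all features ran from 231 (without untreated library 2) to 1173 (without uric acid library 3) in these fits, against 994 with all 6. With all features above 0 FPKM tested, 1 RAB gene was higher (Rab37) and 0 regulators were lower. With a mean of at least 5 FPKM, 0 regulators were lower, since Rab11fip1 is under that filter. DESeq2 gave 2 RAB genes lower (Rab8a and Rab23) and 4 regulators lower, and called 1753 features in all. With either limma fit 0 regulators were lower. The cause of these differences was not tested unless stated.

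Replicate numbers are shared by the groups, and deviations from the group means correlated at 0.0589, -0.0574 and -0.285 for numbers 1, 2 and 3. Between unlike numbers they ran from -0.308 (uric acid 2 with untreated 1) to 0.339 (uric acid 2 with untreated 3). Deviations within a group of 3 sum to 0, so these values cannot show whether libraries were processed together. The main fit used no pairing. With the replicate block 0 RAB genes were higher, 2 regulators were higher (Usp6nl and Tbc1d15) and 0 lower, and 322 features were called in all. No called gene changed sign in any alternative that tested it, which reuses the same libraries and is no independent support. Each scaling left the median over all features within 0.01 of 0. Estimated counts cover counting error only in part, since a read pair may add up to 4 if the unit is as found.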
